A study of Homo sapiens with 6 samples.

Results

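The 10 mucin genes described here (MUC1, MUC2, MUC3A, MUC4, MUC5AC, MUC5B, MUC12, MUC13, MUC17 and MUC20) were taken by name from a table of 27238 rows, in which each of the 10 names stood on a single row. The table held mRNA levels of QBC-939 cells, a human cholangiocarcinoma (bile duct cancer) line. One group of 3 libraries came from cells given an shRNA against BMI1 (Bmi1 shRNA) and the other 3 came from cells that received a scrambled shRNA (control). All 6 were taken 48 h after treatment, and the design text describes the libraries as independent transfections of this single line. Levels were FPKM (fragments per kilobase of transcript, scaled to the fragments of the library), which are per length. Comparison between genes is only approximate where a transcript holds shared or repeated sequence, or where its annotated length is in doubt. BMI1 is a subunit of Polycomb repressive complex 1, a chromatin complex that keeps developmental genes silent.

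Mucins are large glycoproteins whose middle part is a run of repeated serine- and threonine-rich units, which Golgi enzymes cover with O-linked sugar chains. The gel-forming mucins MUC2, MUC5AC and MUC5B are packed into granules, secreted and crosslinked into mucus. The membrane mucins MUC1, MUC3A, MUC4, MUC12, MUC13, MUC17 and MUC20 stay anchored in the apical membrane, where they form the outer sugar coat of bile duct and gut epithelium.

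Repeat units shared between transcripts bear on how well a mucin can be counted, and promoters are shown for the mucin with the highest level, for the one with the largest called change, and for the neighbour of the second. Repeat units were read from GENCODE 29 coding transcripts and promoters from RefSeq (GRCh38.p14, 250 bases before the RefSeq start of the gene, on the gene's strand), where 7 of the 10 mucins had an entry. Capitals mark matches on either strand to GATAA (GATA factors), TGTTTAC (FOXA), GGGCGG (SP1), CAGNTG (ATOH1) or TTTATG (CDX). Of 35116 promoters of this length, 20.4% held the GATA letters, 2.98% the FOXA letters, 42.6% the SP1 letters, 42.5% the ATOH1 letters and 9.64% the CDX letters. The sequences are given 5′ to 3′.
MUC20 repeat unit, 57 bases, found 10 times exactly in MUC20 and 4 times in the transcript of the pseudogene MUC20P1: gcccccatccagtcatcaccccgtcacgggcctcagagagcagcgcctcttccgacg
MUC1 repeat unit, 60 bases, found 19 times exactly: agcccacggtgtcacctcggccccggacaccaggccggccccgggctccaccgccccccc
MUC3A repeat unit, 51 bases, found 2 times exactly: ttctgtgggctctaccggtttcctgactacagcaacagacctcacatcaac
MUC13 promoter, chr3:124934752-124935001, reverse strand: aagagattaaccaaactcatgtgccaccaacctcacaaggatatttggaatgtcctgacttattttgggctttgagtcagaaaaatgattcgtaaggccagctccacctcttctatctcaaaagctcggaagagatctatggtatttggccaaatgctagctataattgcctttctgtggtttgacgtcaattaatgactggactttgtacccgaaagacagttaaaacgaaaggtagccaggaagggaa
MUC3A promoter, chr7:100949284-100949533, forward strand: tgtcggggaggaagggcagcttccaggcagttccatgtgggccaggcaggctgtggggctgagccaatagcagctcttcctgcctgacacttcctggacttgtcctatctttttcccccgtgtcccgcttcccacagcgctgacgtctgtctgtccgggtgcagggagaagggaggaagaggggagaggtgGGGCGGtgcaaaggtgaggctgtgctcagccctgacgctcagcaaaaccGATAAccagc
MUC12 promoter, chr7:100969315-100969564, forward strand: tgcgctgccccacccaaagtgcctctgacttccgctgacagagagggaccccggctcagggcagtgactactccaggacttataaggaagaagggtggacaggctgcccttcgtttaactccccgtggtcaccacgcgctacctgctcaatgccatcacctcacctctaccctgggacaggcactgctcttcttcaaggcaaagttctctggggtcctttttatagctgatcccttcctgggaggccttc
The MUC3A promoter held 2 matches, to the SP1 and the GATA letters, and the MUC13 and MUC12 promoters held none of the 5 motifs. The matches did not overlap each other, and they describe letters only.

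BMI1 itself was lower with its shRNA, at 1.49, 1.19 and 2.65 FPKM in the Bmi1 shRNA libraries against 6.65, 5.34 and 6.09 FPKM in the control libraries (limma, log2 fold change -1.37, SE 0.19, Benjamini-Hochberg adjusted p = 0.00162). FPKM totals were 352800 to 360371 in the Bmi1 shRNA libraries and 332910 to 341268 in the control libraries, and no read counts are given in the sources used here, so the depth is unknown. All 10 biliary epithelium markers averaged 1 FPKM or more, and their sum was 1577 to 1809 FPKM in the Bmi1 shRNA libraries against 1961 to 2097 FPKM in the control libraries. Of these markers KRT19, KRT18 and SLC4A2 fell and CFTR rose (limma, adjusted p under 0.05). The intestinal list summed to 571 to 600 FPKM with Bmi1 shRNA and to 415 to 421 FPKM in control, nearly all of it LGALS4, which rose. Of the 6 intestinal markers with a single row, VIL1 fell. The intestinal regulator CDX2 and the adhesion protein CDH17 averaged 0.0684 and 0.00537 FPKM with Bmi1 shRNA and 0.0800 and 0.0160 FPKM in control. FABP1 averaged 0.531 FPKM with Bmi1 shRNA and 0.258 FPKM in control, without overlap. The hepatocyte list summed to 228 to 240 FPKM with Bmi1 shRNA and to 156 to 166 FPKM in control, and TTR and SERPINA1 rose. CYP3A4 averaged 0.00511 FPKM with Bmi1 shRNA and 0.0150 FPKM in control. ASGR1 averaged 0.259 FPKM with Bmi1 shRNA and 0.168 FPKM in control, without overlap. TF was listed at 0 in every Bmi1 shRNA library and at 0, 0 and 0.00184 FPKM in control. The mesenchyme list summed to 0.745 to 0.953 FPKM with Bmi1 shRNA and to 0.541 to 0.650 FPKM in control. The blood cell list was nearly all LYZ, which was not called, and CD68 fell. The part of these marker shifts in the values of the mucins was not tested.

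The line expressed 3 of the 10 mucins at a mean of at least 1 FPKM over the 6 libraries, and all 3 were membrane mucins: MUC13, MUC20 and MUC3A. MUC13 alone reached 10 FPKM. MUC1 and MUC12 averaged 0.830 and 0.676 FPKM over the 6 libraries, and MUC1 reached 1.26 FPKM in 1 Bmi1 shRNA library. MUC4, MUC17 and the 3 gel-forming mucins among these 10 were below 0.1 FPKM in every library. MUC13, MUC20 and MUC3A together made up 95.8 to 96.6% of the summed mucin FPKM in the Bmi1 shRNA libraries and 96.7 to 96.9% in the control libraries.

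**Figure D1:**
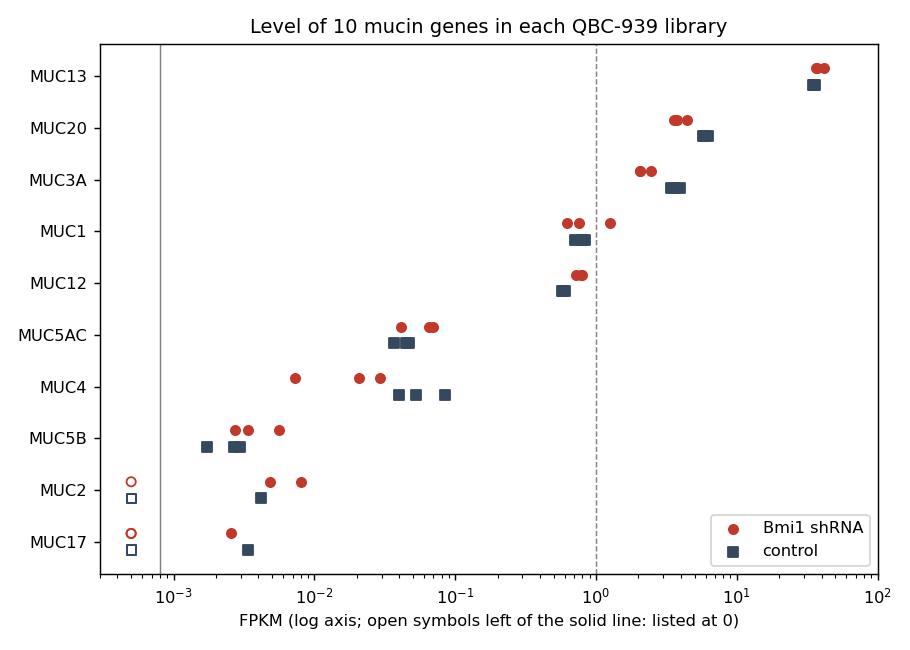
Level of each mucin in FPKM on a log axis, with 1 point per library (circles, 3 Bmi1 shRNA libraries; squares, 3 control libraries). The dashed line marks 1 FPKM, and open symbols left of the solid line are libraries in which the gene was listed at 0. MUC13 stands at 34.7 to 41.4 FPKM, MUC20 and MUC3A between 2 and 7 FPKM, and the 7 other mucins below 1 FPKM on average.

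With Bmi1 shRNA the order of mean level was MUC13, MUC20, MUC3A, MUC1, MUC12, MUC5AC, MUC4, MUC2, MUC5B and MUC17. In that order the library ranges of MUC1 and MUC12, of MUC4 and MUC2, and of MUC2 and MUC5B overlapped, and the other neighbours did not. In control the order of the first 5 was the same, and MUC1 and MUC12 did not overlap there. MUC4 and MUC5AC overlapped in control, as did MUC5B with MUC2 and MUC2 with MUC17. MUC13 ranked 1136 of the 27238 rows by mean FPKM, MUC20 ranked 5702 and MUC3A ranked 7488. Shared sequence in MUC20 and repeated sequence in MUC12 and MUC1, given below, limit how closely these levels can be ordered.

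Rows that averaged 1 FPKM or more over the 6 libraries were tested, and of these 11016 rows 57.1% (6295) were called different between the groups at an adjusted p under 0.05 (limma with Benjamini-Hochberg adjustment over all tested rows), 28.6% higher and 28.5% lower with Bmi1 shRNA. The groups did not overlap in 65.4% of these rows, with 32.3% higher and 33.1% lower, and they did not overlap in any of the 3 tested mucins. Of these mucins, MUC20 and MUC3A fell, MUC13 was not called and none rose. The median log2 fold change of the 3 was that of MUC20, -0.50, and that of all tested rows was -0.02.

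MUC13 is a membrane mucin of the gut and biliary surface with EGF-like domains and a short repeat region. It measured 36.2, 37.0 and 41.4 FPKM in the Bmi1 shRNA libraries and 35.6, 35.0 and 34.7 FPKM in the control libraries, or 38.2 ± 2.81 FPKM with Bmi1 shRNA and 35.1 ± 0.457 FPKM in control (SD, n = 3 each). Every Bmi1 shRNA library was above every control library, but the third Bmi1 shRNA library stood apart from the other two by more than the whole difference of the means. The log2 fold change was 0.12 with an SE of 0.06 and a 95% interval from -0.04 to 0.27, so MUC13 did not pass the test (limma, adjusted p = 0.166). After scaling each library to an FPKM total of 1000000 the groups overlapped, at 101 to 117 in Bmi1 shRNA libraries and 104 to 105 in control libraries, with a log2 fold change of 0.03 (limma, adjusted p = 0.746). Without the third Bmi1 shRNA library the log2 fold change was 0.06. MUC13 lies on the reverse strand of chromosome 3, from 124905442 to 124953819 (GRCh38, GENCODE 29). The RefSeq start used for its promoter lies inside this span, so the printed promoter is not the stretch before the GENCODE start. None of the 2830 windows of 50 bases in its longest coding transcript was found in a transcript of another gene or repeated within it.

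MUC20 is a membrane mucin known to bind the receptor MET. It measured 3.58, 3.76 and 4.40 FPKM in the Bmi1 shRNA libraries and 5.78, 5.83 and 6.21 FPKM in the control libraries. The groups did not overlap, and all 3 Bmi1 shRNA libraries were below all 3 control libraries. The means were 3.91 ± 0.433 FPKM with Bmi1 shRNA and 5.94 ± 0.235 FPKM in control (SD, n = 3 each), a ratio of 0.659. The log2 fold change was -0.50 (SE 0.08, 95% interval -0.69 to -0.31; limma, adjusted p = 0.00247). In bulk libraries such as these, fewer cells expressing a gene and less of its RNA per cell cannot be told apart. After correction for GC, in which the trend of each library with the GC content and length of transcripts was subtracted, the log2 fold change was -0.22 (limma, adjusted p = 0.0407).

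Most of the MUC20 transcript is not unique to it. Of its 2793 windows of 50 bases, 69.1% were also found in transcripts of other genes: 46.6% in MUC20P1, a pseudogene of MUC20, and 35.8% in MUC20-OT1, a noncoding RNA on the same strand that overlaps MUC20 over 19083 bases. MUC20 spans 195720882 to 195741123 on the forward strand of chromosome 3 and MUC20P1 spans 195614947 to 195620233 on the same strand (GRCh38, GENCODE 29). The split of reads between these 3 rows is therefore uncertain. MUC20P1 measured 4.62, 4.56 and 5.02 FPKM in the Bmi1 shRNA libraries and 8.28, 9.19 and 6.04 FPKM in the control libraries, and it fell as well (limma, log2 fold change -0.61, SE 0.14, adjusted p = 0.00981). The sum of MUC20 and MUC20P1 was 8.64 ± 0.674 FPKM with Bmi1 shRNA and 13.8 ± 1.41 FPKM in control (SD, n = 3 each), without overlap. The ratio of MUC20 to MUC20P1 was 0.775, 0.825 and 0.878 in the Bmi1 shRNA libraries and 0.698, 0.635 and 1.03 in the control libraries, so the groups overlapped in how the pair was split. MUC20-OT1 was lower than either, at 0.421 ± 0.0691 FPKM with Bmi1 shRNA and 0.417 ± 0.235 FPKM in control (SD, n = 3 each), and its groups overlapped.

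**Figure D2:**
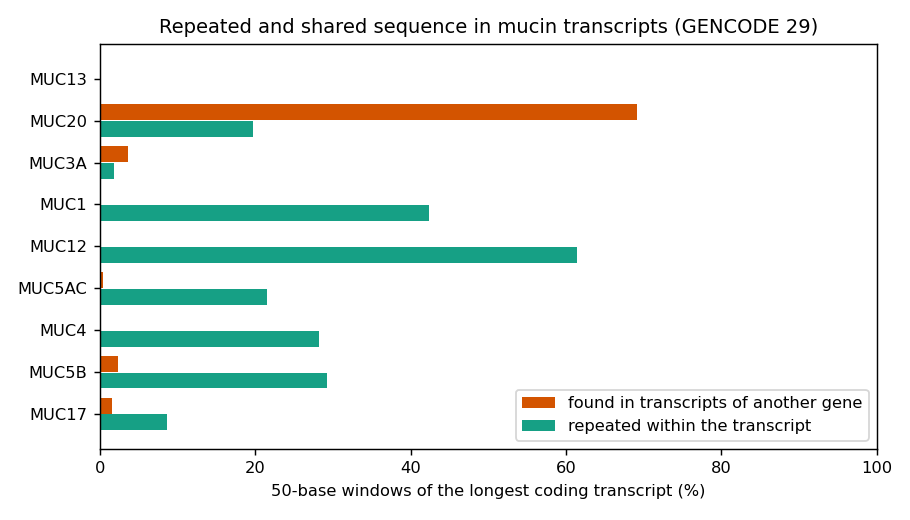
Share of 50-base windows of the longest coding transcript that are also found in a transcript of another gene (upper bar) or occur more than once in the same transcript (lower bar), for 9 mucins, in percent. MUC20 is the one with a large shared part, at 69.1%, and MUC12 has the largest repeated part, at 61.5%, while MUC13 has neither. MUC2 is left out because its annotated coding transcript holds 393 bases.

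MUC3A is an intestinal membrane mucin. It measured 2.06, 2.04 and 2.46 FPKM in the Bmi1 shRNA libraries and 3.43, 3.96 and 3.62 FPKM in the control libraries. All 3 Bmi1 shRNA libraries were below all 3 control libraries, with a gap between the groups larger than the spread within either. The means were 2.19 ± 0.238 FPKM with Bmi1 shRNA and 3.67 ± 0.268 FPKM in control (SD, n = 3 each), a ratio of 0.596. The log2 fold change was -0.55 (SE 0.08, 95% interval -0.74 to -0.36; limma, adjusted p = 0.00186), the largest change among the 3 tested mucins. The call was lost after the correction for GC content and length together, where the log2 fold change was -0.11 (limma, adjusted p = 0.178). Of the windows of its 11226-base transcript 3.67% were found elsewhere, all in AC254629.1, an antisense gene that overlaps MUC3A over 4297 bases, and reads from the pair cannot be told apart where counting ignores strand.

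**Figure D3:**
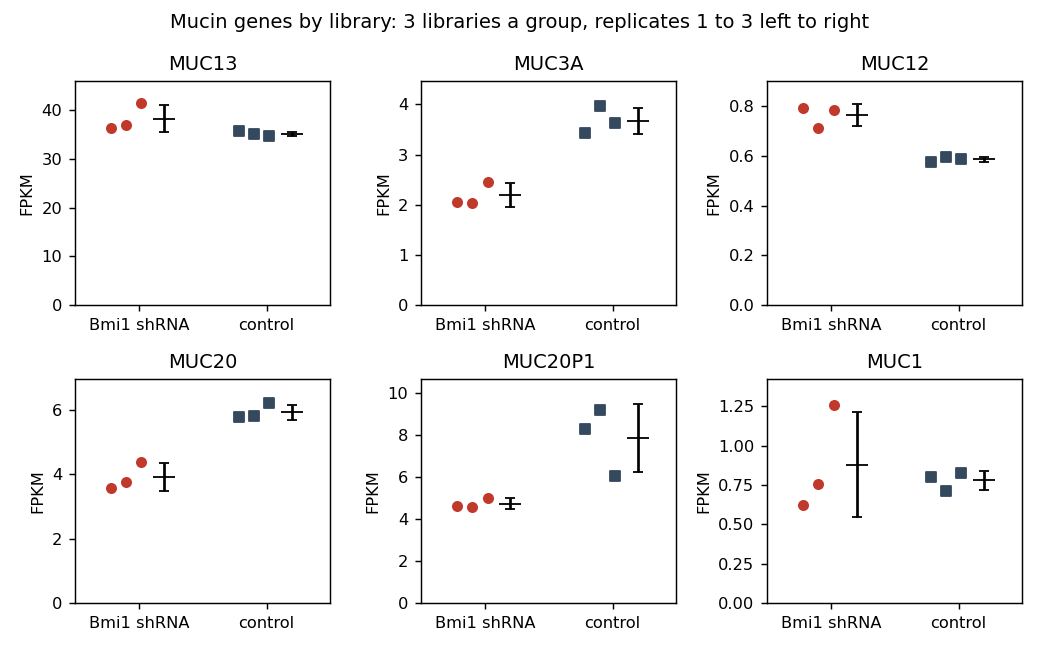
FPKM in each library for 5 mucins and the pseudogene MUC20P1, on axes that start at 0, with circles for Bmi1 shRNA, squares for control, and the mean ± SD of each group beside its points. MUC20, MUC3A and MUC20P1 are lower in all 3 Bmi1 shRNA libraries, MUC13 and MUC12 are higher in all 3, and the third Bmi1 shRNA library sets the wide spread of MUC1.

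Transcript composition moved with the direction of change over the whole table. Among 10206 tested rows with a known transcript, ordered by GC content into 10 groups of about equal size, 74.7% of the group lowest in GC were called higher with Bmi1 shRNA and the median log2 fold change there was 0.48. MUC13, at 44.7% GC, lay in a GC group with a median of 0.18, in which 42.5% of rows rose and 10.7% fell. MUC3A, at 52.0% GC, lay in a GC group with a median of -0.22, in which 14.7% rose and 46.3% fell. MUC20, at 60.0% GC, lay in a GC group with a median of -0.23, in which 11.6% rose and 46.9% fell. The 3 tested mucins thus had the sign of the median of their own GC group. The parts of GC content and of length in the mucin values were not tested beyond the corrected fit. That fit removes both trends together, so they are not separated, and it also takes out real changes that follow GC or length.

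**Figure D4:**
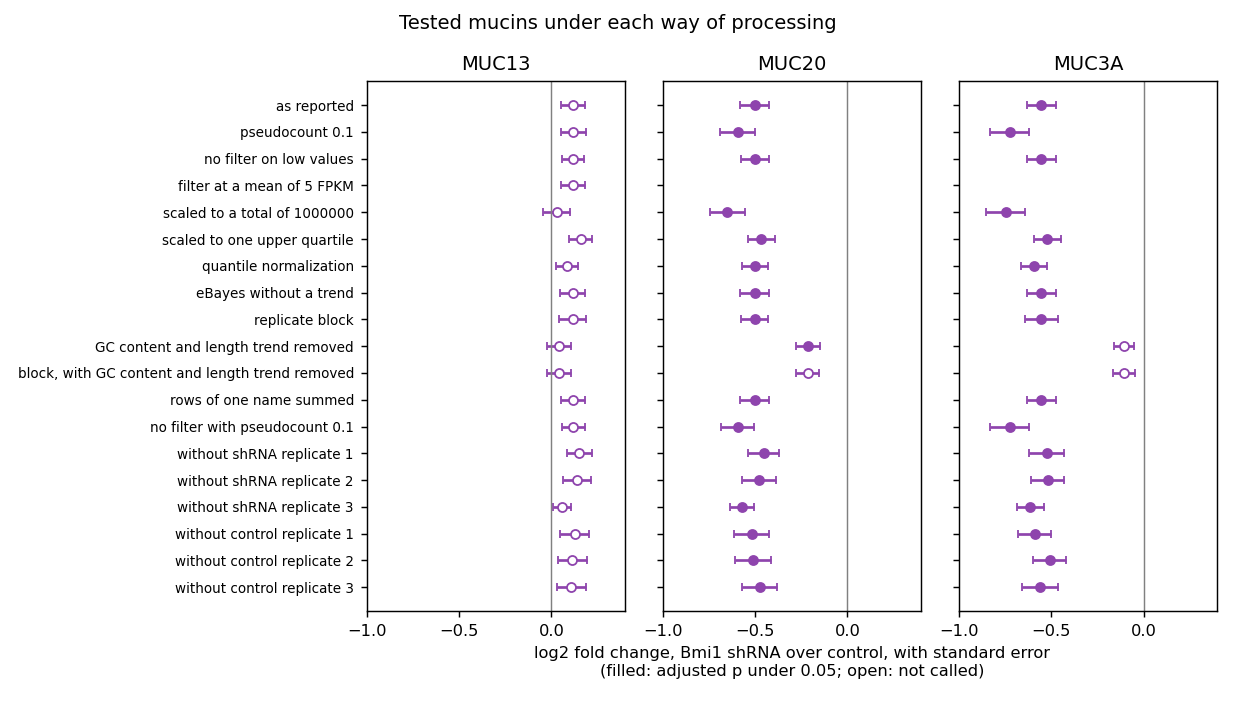
Log2 fold change of the 3 tested mucins, Bmi1 shRNA over control on log2(FPKM + 1), or with the pseudocount named, with its standard error, under each way of processing. Filled points were called at an adjusted p under 0.05, and MUC20 and MUC3A have no point at the 5 FPKM filter, which they did not pass. MUC13 is open throughout, and MUC20 and MUC3A lie below 0 throughout. In the fit corrected for GC content and length MUC3A moves to -0.11 and MUC20 to -0.22.

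MUC1, MUC12, MUC5AC, MUC4, MUC5B, MUC2 and MUC17 had a mean under 1 FPKM and were not among the 11016 tested rows. MUC1, the widely expressed membrane mucin whose shed part is a tumour marker, measured 0.624, 0.753 and 1.26 FPKM with Bmi1 shRNA and 0.80, 0.712 and 0.829 FPKM in control. The groups overlapped, and 1 Bmi1 shRNA library was above all others. Of the windows of its transcript 42.4% were repeated within it and none was found in another gene.

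MUC12 is a membrane mucin of the colon whose gene follows MUC3A on chromosome 7. It measured 0.795, 0.715 and 0.784 FPKM with Bmi1 shRNA and 0.577, 0.598 and 0.587 FPKM in control, so that every Bmi1 shRNA library was above every control library. In a fit over all 27238 rows without a filter its log2 fold change was 0.15 and not called (limma, adjusted p = 0.101), and with a pseudocount of 0.1 in that fit it was 0.33 (limma, adjusted p = 0.143). MUC3A ends 1276 bases before MUC12 begins, and MUC12 ends 1122 bases before MUC17 begins, all on the forward strand. With Bmi1 shRNA the values of MUC3A were lower and those of MUC12 higher. However, MUC12 was not called, and the call of MUC3A was lost after correction for GC. Of the windows of the MUC12 transcript 61.5% were repeated within it. The ratio of MUC3A to MUC12 was 2.59, 2.85 and 3.14 in the Bmi1 shRNA libraries and 5.94, 6.62 and 6.17 in the control libraries. MUC17, the third gene of this row and a membrane mucin of the small intestine, was listed at 0, 0.00257 and 0 FPKM with Bmi1 shRNA and at 0, 0.00338 and 0 FPKM in control.

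MUC4, a membrane mucin that binds ERBB2, measured 0.00731, 0.0294 and 0.0209 FPKM with Bmi1 shRNA and 0.0396, 0.0841 and 0.0529 FPKM in control. Every Bmi1 shRNA library was below every control library, at levels under 0.1 FPKM throughout. Without a filter its log2 fold change was -0.05 and not called (limma, adjusted p = 0.119), or -0.41 with a pseudocount of 0.1 (limma, adjusted p = 0.115). MUC4 lies 5641 bases from MUC20 on the opposite strand. MUC12 and MUC4 were the 2 of these 7 mucins whose groups did not overlap, and among the 16222 rows under 1 FPKM this held for 18.2%.

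The gel-forming mucins of this set lie in a row on chromosome 11 and were near or at 0. MUC5AC, the mucin of gastric and airway mucus, measured 0.0414, 0.0656 and 0.0690 FPKM with Bmi1 shRNA and 0.0446, 0.0473 and 0.0368 FPKM in control, with overlap. MUC5B, a mucin of the gallbladder, bile ducts and airways, measured 0.00557, 0.00271 and 0.00336 FPKM with Bmi1 shRNA and 0.00270, 0.00173 and 0.00295 FPKM in control, also with overlap. MUC2, the mucin of intestinal goblet cells, was listed at 0, 0.00797 and 0.00482 FPKM with Bmi1 shRNA and at 0, 0 and 0.00421 FPKM in control. Without counts it cannot be said what level the 0 values allow.

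The summed level of the 10 mucins overlapped between the groups, while the share of MUC13 in it did not. The sum of the 10 was 43.3, 44.3 and 50.4 FPKM with Bmi1 shRNA and 46.3, 46.2 and 46.1 FPKM in control, with overlap. MUC13 made up 83.6, 83.4 and 82.1% of that sum with Bmi1 shRNA and 77.0, 75.7 and 75.4% in control. The ratio of MUC13 to MUC3A was 16.8 to 18.1 with Bmi1 shRNA and 8.84 to 10.4 in control. These ratios are unchanged where a library is multiplied by a single factor, but not under quantile normalization or the correction for GC. After that correction the log2 fold changes were 0.04 for MUC13 and -0.11 for MUC3A.

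The centred log2(FPKM + 1) of MUC13 and of MUC3A over the 6 libraries was compared with that of 10558 uniquely named rows. Only rows named by a listed gene symbol were kept as closest. Those most like MUC13 were EIF3A, a subunit of a translation initiation factor, TTC13, and PAWR, a pro-apoptotic protein. Their root mean square differences were 0.0240, 0.0246 and 0.0255. EIF3A averaged 32.0 ± 2.61 FPKM with Bmi1 shRNA and 29.4 ± 1.08 FPKM in control (SD, n = 3 each). The rows most like MUC3A were DYNC1H1, the dynein heavy chain, TTLL12, and TCOF1, a nucleolar protein, with differences of 0.0122, 0.0150 and 0.0174. TTLL12 averaged 11.8 ± 1.04 FPKM with Bmi1 shRNA and 17.7 ± 1.28 FPKM in control (SD, n = 3 each).

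Of 14 further mucin or mucin-like genes looked for by name, 4 stood on a single row. The other 10, among them MUC6 and MUC19, had no row or a repeated name and are not analysed here. OVGP1, the oviduct glycoprotein, averaged 2.31 ± 0.113 FPKM with Bmi1 shRNA and 2.67 ± 0.266 FPKM in control, and was not called (SD, n = 3 each; limma, adjusted p = 0.134). CD164, an endolysosomal sialomucin, averaged 16.1 ± 4.53 FPKM with Bmi1 shRNA and 11.7 ± 2.13 FPKM in control, and was not called either (SD, n = 3 each; limma, adjusted p = 0.127). MUCL3 and MUC21 lay under the filter and were lower in all 3 Bmi1 shRNA libraries. Among the 16222 rows under 1 FPKM the groups did not overlap in 18.2%. MUC21 measured 0, 0.0133 and 0.0164 FPKM with Bmi1 shRNA and 0.0530, 0.0389 and 0.0434 FPKM in control. MUCL3 averaged 0.683 ± 0.109 FPKM with Bmi1 shRNA and 1.15 ± 0.0773 FPKM in control (SD, n = 3 each).

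Genes that serve mucins were counted in 5 lists. With the 2 further mucins above, 64 genes were tested and 43 called, 19 higher and 24 lower, all 43 in the 5 lists, beside 57.1% called over all tested rows, 28.6% higher and 28.5% lower. Of 9 tested genes for folding, packaging and mucus, 5 rose, 3 fell and BCAS1 was not called (median log2 fold change 0.45). The rises were those of TFF3 and TFF1, trefoil peptides secreted with mucus, SPINK4, a goblet cell protease inhibitor, AGR2, the disulfide isomerase that MUC2 needs in mice, and its relative AGR3. TFF3 averaged 64.7 ± 6.37 FPKM with Bmi1 shRNA and 9.95 ± 0.382 FPKM in control, and AGR2 averaged 65.6 ± 5.54 FPKM with Bmi1 shRNA and 37.1 ± 2.35 FPKM in control (SD, n = 3 each). TFF1 averaged 10.0 ± 1.25 FPKM with Bmi1 shRNA and 4.90 ± 0.491 FPKM in control (SD, n = 3 each; limma, log2 fold change 0.90, adjusted p = 0.000938). P4HB, the general protein disulfide isomerase, QSOX1, a sulfhydryl oxidase, and ERN2, the IRE1 beta stress sensor of mucous cells, fell. The log2 fold change of AGR2 was 0.81, and 0.32 after correction for GC. Of the mucins these proteins serve, MUC2, MUC5AC and MUC5B stayed under 0.1 FPKM in the same libraries, and MUC6 was not read.

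Of 19 tested genes of O-glycan synthesis, which build the sugar chains of mucins, 4 rose, 10 fell and 5 were not called (median log2 fold change -0.22). The rises were those of GALNT1, GALNT3 and GALNT7, which attach the first sugar, and C1GALT1, which adds galactose to it. C1GALT1 averaged 1.59 ± 0.105 FPKM with Bmi1 shRNA and 0.780 ± 0.0622 FPKM in control (SD, n = 3 each; limma, adjusted p = 0.00104), and its call was lost after correction for GC (limma, adjusted p = 0.151). Among the falls were ST3GAL1, which caps chains with sialic acid, GALNT6, another first-sugar enzyme, and FUT3, the Lewis fucosyltransferase. ST3GAL1 averaged 6.89 ± 0.870 FPKM with Bmi1 shRNA and 14.1 ± 0.745 FPKM in control (SD, n = 3 each; limma, log2 fold change -0.94, adjusted p = 0.000559). GALNT6 averaged 5.81 ± 0.228 FPKM with Bmi1 shRNA and 9.49 ± 0.777 FPKM in control, and FUT3 averaged 2.0 ± 0.189 FPKM with Bmi1 shRNA and 3.55 ± 0.362 FPKM in control (SD, n = 3 each). GALNT2, GALNT4, C1GALT1C1, GCNT3 and B3GALT5 were not called. After correction for GC, 2 genes of this list rose and 6 fell, beside 2111 and 1756 of 10206 rows over the whole table. The log2 fold changes of ST3GAL1, GALNT6 and FUT3 were then -0.53, -0.25 and -0.33.

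Of 13 tested transcription factors that act on mucin genes, 3 rose, 4 fell and 6 were not called (median log2 fold change -0.16). ATOH1, the factor of secretory cells of the gut, averaged 5.39 ± 0.498 FPKM with Bmi1 shRNA and 2.26 ± 0.285 FPKM in control (SD, n = 3 each), and FOXA3 and CREB3L4 rose as well. GATA6 averaged 8.57 ± 0.421 FPKM with Bmi1 shRNA and 14.7 ± 0.622 FPKM in control (SD, n = 3 each; limma, log2 fold change -0.71, adjusted p = 0.000401). HNF4A, a factor of liver and gut epithelium, averaged 0.989 ± 0.131 FPKM with Bmi1 shRNA and 1.76 ± 0.192 FPKM in control (SD, n = 3 each; limma, log2 fold change -0.47, adjusted p = 0.00384). SPDEF, the goblet cell factor, was among the 6 not called, at 35.0 ± 1.44 FPKM with Bmi1 shRNA and 31.4 ± 2.36 FPKM in control (SD, n = 3 each; limma, adjusted p = 0.0988). After correction for GC the split was 6 higher and 2 lower, beside 2111 and 1756 of 10206 rows over the whole table. GATA6 then had a log2 fold change of -0.38.

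Of 10 tested genes of secretory granule release, 3 rose, 3 fell and 4 were not called (median log2 fold change -0.01). The rises were those of the granule GTPases RAB27A and RAB27B and of VAMP8, the SNARE of mucin granules. The falls were those of UNC13D, a priming factor, of the chaperone DNAJC5 and of STXBP2. RAB27A averaged 3.71 ± 0.118 FPKM with Bmi1 shRNA and 1.74 ± 0.226 FPKM in control, and UNC13D averaged 1.19 ± 0.151 FPKM with Bmi1 shRNA and 2.48 ± 0.144 FPKM in control (SD, n = 3 each). Their log2 fold changes were 0.78 and -0.67, or 0.35 and -0.32 after correction for GC.

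Of 11 tested sheddases and partners of membrane mucins, 4 rose, 4 fell and 3 were not called (median log2 fold change 0.13). PDZK1, a scaffold of the apical membrane, averaged 4.73 ± 0.367 FPKM with Bmi1 shRNA and 1.27 ± 0.349 FPKM in control (SD, n = 3 each; limma, log2 fold change 1.35, adjusted p = 0.000467). The proteases ADAM9 and ADAM10 and the Golgi scaffold GOPC rose as well. The kinase SRC and the receptors EGFR, ERBB2 and ERBB3 fell. ERBB2, the partner of MUC4, averaged 3.93 ± 0.453 FPKM with Bmi1 shRNA and 6.36 ± 0.337 FPKM in control (SD, n = 3 each; limma, log2 fold change -0.58, adjusted p = 0.00175). After correction for GC the log2 fold change of ERBB2 was -0.19. MMP14, LGALS3 and CTNNB1 were not called.

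**Figure D5:**
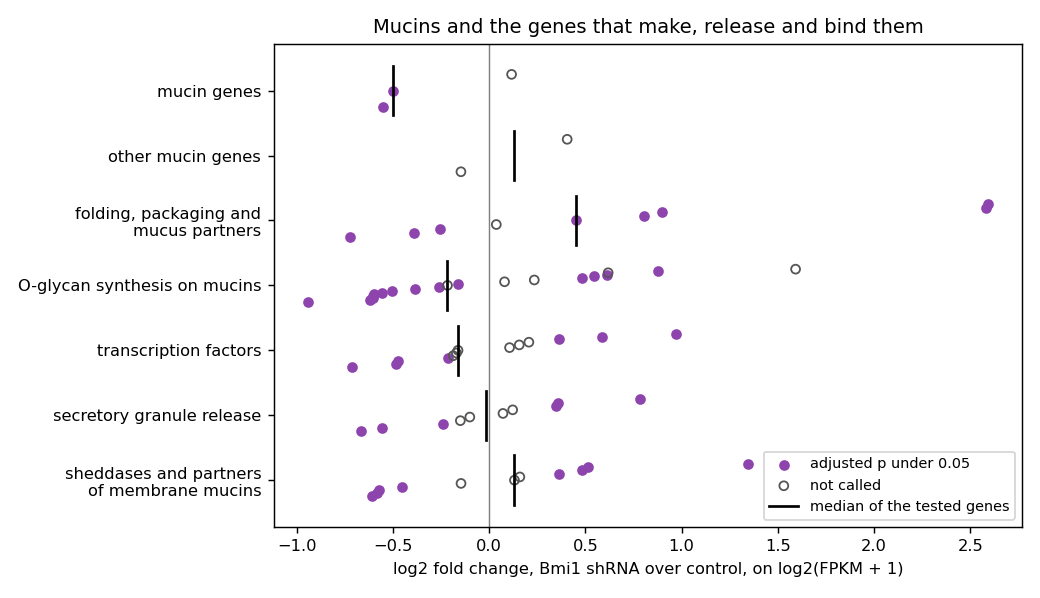
Log2 fold change, Bmi1 shRNA over control on log2(FPKM + 1), of the 3 tested mucins and of the tested genes of each list, with 1 point per gene. Filled points were called at an adjusted p under 0.05, open ones were not, and the upright bar is the median of the tested genes. The 5 lists of genes that serve mucins hold calls on either side of 0, with TFF3 and SPINK4 the farthest to the right.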

How the data were processed

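Poly(A) RNA was sequenced as paired-end libraries, per the labels' extraction protocol, which also names adipose material. The authors deposited one table of FPKM values for the 6 libraries, with columns named Sc and Sh and a number, read as scrambled and Bmi1 shRNA replicates. The tools named in the submitters' processing notes are StringTie 1.3.0, HISAT2 2.0 and Bowtie 0.12.2. The same notes name mm8, a mouse genome, so the build behind these human cells is not settled, and the table gives no coordinates. Use of strand in counting is not stated. The design text names siRNA for the control and the treatment protocol shRNA. Steps of whole reads were looked for among low values and not found (the commonest ratio held for 2.72% of 331 rows), so no count test was run and depth is unknown.

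Tests used limma 3.58.1 in R 4.3.3 with group as the term, on FPKM taken to log2 after adding a pseudocount of 1. They covered the 11016 rows that averaged 1 FPKM or more, with a trend in eBayes. Benjamini-Hochberg adjustment ran over all tested rows, and rows were called under 0.05. The fit was also run on simulated data, with far fewer changed rows than were called here and no trend with GC content. That run therefore does not measure the error of the calls in these data. Fold changes on this scale understate those of low genes. Positions, GC content, length and 50-base windows came from GENCODE 29 transcripts (GRCh38), known for 92.6% of tested rows. For the correction for GC, the trend of each library with GC content and length was fitted with natural splines of 5 degrees of freedom each and subtracted. The settings varied were the pseudocount (0.1), the filter on low rows (none, or 5 FPKM), scaling, the variance prior, the replicate number as a block, repeated names summed and each library left out. Named genes are all 10 mucins, BMI1, in each list the called members with the smallest p, the members of small counts, cell type markers and the rows most like a mucin; SPDEF, MUC20P1 and MUC20-OT1 were named after their values were seen. The members and lists were chosen with earlier results of these data known. A few list members are counted but not reported here by name.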

Additional observations from a re-analysis of the deposited data

How the results depend on the processing

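MUC20, MUC3A and BMI1 kept their direction under every setting in which they were fitted, and MUC13 was not called under any. After correction for GC, 3867 rows were called in all (2111 higher, 1756 lower) among the 10206 with a known transcript, and 1 mucin, MUC20, was called lower. MUC3A then had a log2 fold change of -0.11 (limma, adjusted p = 0.178). A filter at 5 FPKM left 5641 rows and MUC13 as the one mucin tested. With that filter 3478 rows were called (1631 higher, 1847 lower), 0 mucins, and 25 of 36 tested companion genes (9 higher). Scaling to one FPKM total moved the median log2 fold change of all tested rows to -0.10 and the split of calls to 2649 higher and 3708 lower. Without a filter MUCL3 and MUC21 were called lower, so that the list of further mucins had 2 calls. MUC21 was at 0.0530 FPKM or less in every library. The fit with neither filter nor a pseudocount of 1 was chosen after seeing the data.

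With each library left out in turn, 5226 to 6122 rows were called, 2724 to 2982 higher and 2484 to 3140 lower. In each of these fits the mucins called were 2, both lower, and the companion genes called were 39 to 42. MUC20 had a log2 fold change of -0.57 to -0.45, MUC3A of -0.61 to -0.51, MUC13 of 0.06 to 0.15 and BMI1 of -1.58 to -1.22.

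Replicate numbers are shared between the groups, but libraries of one number did not deviate together (r of 0.0037, -0.079 and -0.023 for numbers 1 to 3, across genes, against -0.076 to 0.10 for other pairs), so they share only a number. With the replicate number as a block 5658 rows were called, and MUC20 and MUC3A were called lower (limma, adjusted p = 0.00741 and 0.00901). With the replicate block and the correction for GC together, 2954 rows were called (1681 higher, 1273 lower), 0 mucins (0 lower), and 23 companion genes (9 lower), with MUC20 at -0.22 (limma, adjusted p = 0.0627) and MUC3A at -0.11 (limma, adjusted p = 0.228).

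The counts of calls in the lists moved by over 1.5 times in some settings, and the 5 FPKM filter also left fewer genes tested. O-glycan synthesis had 8 calls among 10 tested genes with the 5 FPKM filter, beside 3478 of 5641 rows over the whole table. It had 8 among 19 corrected for GC, beside 3867 of 10206 rows. With the block and that correction it had 6 among 19, beside 2954 of 10206 rows. In the fit with the block and the correction for GC, secretory granule release had 2 calls (1 higher, 1 lower). Sheddases and partners had 3 there (2 higher, 1 lower), and transcription factors had 6 (5 higher, 1 lower). With the 5 FPKM filter granule release and sheddases had 3 calls each, among 4 tested genes each. Transcription factors had 5 higher with one upper quartile and 6 corrected for GC, beside 3389 of 11016 and 2111 of 10206 rows higher. The depth of the libraries is unknown, which limits what can be read from the 7 mucins under 1 FPKM.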
